A study of Mus musculus with 12 samples.

Results

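The genes described here encode the nuclear pore complex, the protein channel through which all regulated traffic between nucleus and cytoplasm passes. They were taken by symbol: 19 genes whose symbol is Nup followed by a number, and Tpr, Ndc1, Pom121, Aaas, Rae1, Seh1l, Sec13 and Ahctf1. These 27 genes were found in both tables, among 43309 features at day 5 and 42802 at day 9, and all 27 passed the filter on low counts at both days. Nup62, a central channel protein whose symbol also fits the rule, is not analysed here. The pore genes Ranbp2, Nupl1 (now Nup58), Nupl2 (now Nup42) and Nup62cl have symbols outside the rule and are given separately.

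The cells were cultured mouse neural progenitor cells of the C57BL/6 strain, which divide when grown with EGF and FGF-2 (10 ng/ml each) and can form neurons and glia. In 12 libraries of 4 groups, 3 per group, polyadenylated RNA was sequenced from cKO cells at day 9, WT cells at day 9, cKO cells at day 5 and WT cells at day 5. The cKO cells carried floxed alleles of Lmnb1, the gene of the nuclear envelope protein lamin B1, and the WT cells carried intact Lmnb1. All 4 groups carried the Ai3 allele, a Cre-dependent EYFP reporter, all received a lentivirus with Cre recombinase under a Sox2 promoter, and all were sorted for EYFP, so cells in which the reporter was not recombined were left out by the sort. Whether the replicates are independent cultures is not stated in the labels, and the p-values refer to the spread between libraries, which may be technical.

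A nuclear pore is built in layers. The Y complex forms an outer ring on each face of the envelope, the inner ring lies between them, and membrane proteins hold the ring in the envelope. Proteins rich in phenylalanine and glycine repeats fill the channel, filaments extend into the cytoplasm and a basket extends into the nucleus. Scaffold proteins are known to be long-lived in cells that no longer divide, and dividing cells assemble new pores after each mitosis. Lamin B1 is a main protein of the nuclear lamina, the meshwork under the inner nuclear membrane, to which pores are attached in part through the basket protein Nup153.

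Library totals were 26720476 to 32127629 counts at day 5 and 13315273 to 24662809 counts at day 9, and some libraries stood apart. At day 9, features of ribosomal and other structural RNA held 72.6% and 71.4% of the counts in cKO replicates 1 and 3 and 0.364% in cKO replicate 2, against 15.95% to 35.0% in the WT libraries. This left 3645082 and 3918154 other counts in cKO replicates 1 and 3, with 22904759 in cKO replicate 2 and 16030361 to 20519007 in the WT libraries. At day 5, cKO replicate 2 (14.4% structural RNA) and WT replicate 1 (0.0747%) departed from the other 4 libraries with the base composition of transcripts, as described with the day 5 values. CPM (a count per 1000000 counts of the library) is given after scaling by the TMM method, which sets the libraries of a day on a common footing, and "called" means an adjusted p under 0.05 in edgeR's quasi-likelihood test over all genes of the table.

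Lmnb1, the targeted gene, was low in every cKO library. At day 9 it had 34.3, 32.8 and 39.4 CPM in cKO cells, against 155.7, 209.7 and 187.9 CPM in WT cells. At day 5 it had 37.8, 40.7 and 45.0 CPM in cKO cells, against 288.3, 255.1 and 247.4 CPM in WT cells. The groups did not overlap at either day, and the log2 fold changes were -2.38 ± 0.14 at day 9 (SE, edgeR adjusted p = 1.85e-05) and -2.68 ± 0.20 at day 5 (edgeR adjusted p = 0.0493). Which exons are floxed is not given in the labels, so counts that remain may come from exons outside the deleted part.

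At day 9, 13 of the 27 pore genes fell in cKO cells, 2 rose and 12 were not called. The genes that fell belong to the Y complex, the inner ring, the membrane ring and, for 1 of them, the basket, and both that rose belong to the basket. In RNA of bulk cells, a smaller share of cells of a type and less RNA per cell cannot be told apart. Over all 14617 genes tested at day 9, 43.6% were called, 21% as higher and 22.6% as lower, so the count of fallen pore genes stands beside a background of 22.6%. The median log2 fold change was -0.34 over the 27 pore genes and 0.013 over all genes tested. The summed level of the 27 genes was 808.0 to 850.7 CPM in cKO libraries and 934.6 to 1084 CPM in WT libraries. Every cKO library was below every WT library for 15 pore genes and above every WT library for 4, where the shares over all genes tested were 30.2% and 27.6%.

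**Figure D1:**
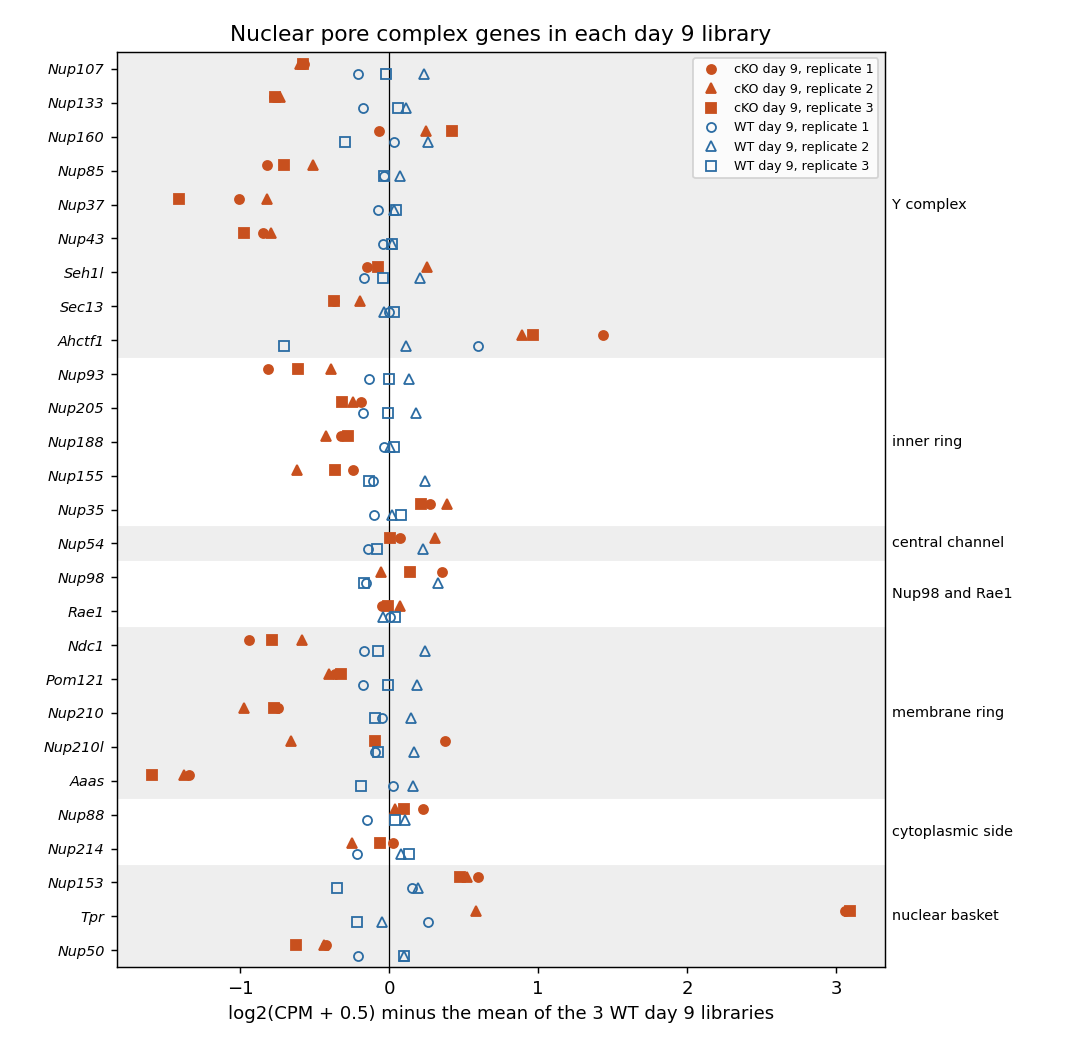
Each row is a pore gene, grouped by the layer named at the right, and each symbol is a day 9 library (filled: cKO, open: WT), placed by its log2(CPM + 0.5) minus the mean of the 3 WT libraries. The filled symbols lie left of all open ones for 15 genes, most of them in the Y complex, inner ring and membrane ring, and Tpr is far to the right in cKO replicates 1 and 3 but not in cKO replicate 2.

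In the Y complex, 6 of 9 genes fell and none was called higher (median log2 fold change -0.61). Nup133, a stem subunit of the Y, had 22.8, 23.4 and 22.8 CPM in cKO cells, against 34.7, 42.4 and 40.9 CPM in WT cells. Its log2 fold change was -0.77 ± 0.12 (SE, edgeR adjusted p = 0.00171). The 3 cKO libraries lay close together and below every WT library. Nup37, a small peripheral subunit bound to Nup160, had 2.96, 3.45 and 2.11 CPM in cKO cells, against 6.10, 6.60 and 6.66 CPM in WT cells. It fell by 1.15 ± 0.22 on the log2 scale (edgeR adjusted p = 0.00466), the largest fall among the Y complex genes. Nup43, another peripheral subunit, had 4.83, 5.03 and 4.36 CPM in cKO cells, against 8.82, 9.18 and 9.22 CPM in WT cells (log2 fold change -0.93 ± 0.15, edgeR adjusted p = 0.0023). Nup85, on a short arm of the Y, had 20.9, 26.1 and 22.7 CPM in cKO cells, against 36.4, 39.2 and 36.4 CPM in WT cells (log2 fold change -0.68 ± 0.12, edgeR adjusted p = 0.00373). With GC content and transcript length smoothed out, Nup85 was not called, at -0.26 (edgeR adjusted p = 0.1). For each of these 4 genes the cKO and WT libraries did not overlap.

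Nup107, the partner of Nup133 in the stem, averaged 13.9 ± 0.14 CPM in cKO cells and 21.2 ± 3.39 CPM in WT cells (SD, n = 3 each; edgeR adjusted p = 0.0113). Sec13, which is also a coat protein of transport vesicles leaving the endoplasmic reticulum, averaged 68.2 ± 4.82 CPM in cKO cells and 84.6 ± 1.99 CPM in WT cells (SD, n = 3 each; edgeR adjusted p = 0.0279). Its call did not survive the omission of any library but cKO replicate 2 (edgeR adjusted p 0.0619 to 0.103 in those 5 fits), and when GC content and transcript length were smoothed out it was called higher, at 0.25 (edgeR adjusted p = 0.0498). Nup160, the long arm of the Y, and Seh1l, the partner of Nup85, were not called, at log2 fold changes of 0.21 ± 0.19 and 0.02 ± 0.16 (SE). With GC content smoothed out, Seh1l was called lower, at -0.50 (edgeR adjusted p = 0.0486). Ahctf1 encodes ELYS, which brings the Y complex to chromatin when pores form after mitosis, and its values ran the other way. It had 30.1, 20.4 and 21.5 CPM in cKO cells, against 16.5, 11.7 and 6.43 CPM in WT cells. No cKO library overlapped a WT library, but the log2 fold change of 1.05 ± 0.36 was not called (edgeR adjusted p = 0.0548), and WT replicate 3 was the lowest of all. Ahctf1 was called higher in 5 of 16 alternative analyses, at 1.06 in DESeq2, 1.07 in limma-voom, 1.13 with the replicate block, 1.39 without WT replicate 1 and 0.74 without WT replicate 3 (adjusted p 0.00651, 0.0462, 0.011, 0.0149 and 0.0387).

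In the inner ring, 2 of 5 genes fell and none was called higher (median -0.34). Nup93, the subunit that links the others of the ring, had 27.3, 36.8 and 31.5 CPM in cKO cells, against 44.0, 53.1 and 48.3 CPM in WT cells. The groups did not overlap, and the log2 fold change was -0.60 ± 0.14 (SE, edgeR adjusted p = 0.0107); without WT replicate 2 it was -0.53 (edgeR adjusted p = 0.0548). Nup188, a large scaffold subunit, had 46.5, 43.3 and 48.1 CPM in cKO cells, against 56.8, 58.4 and 59.7 CPM in WT cells. This smaller difference was -0.34 ± 0.09 on the log2 scale (edgeR adjusted p = 0.0192). It was lost without WT replicate 2, WT replicate 3 or cKO replicate 1 (edgeR adjusted p 0.0557, 0.0627 and 0.0595), and the log2 fold change was -0.01 when GC content was smoothed out. Its counterpart Nup205 was not called at -0.26 ± 0.11, nor was Nup155 at -0.43 ± 0.16 (SE), although every cKO library was below every WT library for both. Nup35, which contacts the membrane, was at 0.30 ± 0.12 (SE, edgeR adjusted p = 0.0645), with every cKO library above every WT library. With GC content and transcript length smoothed out, 4 of the 5 inner ring genes were called lower and 1 higher: Nup155 was then at -1.20 (edgeR adjusted p = 0.000122), Nup205 at -0.42 (0.00582) and Nup35 at 0.46 (0.00789). Nup155 was also called lower with GC content alone smoothed out and without the low count filter, Nup205 without WT replicate 1, and Nup35 higher in DESeq2, in limma-voom, with RLE scaling and with a stricter filter.

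Of the genes of the membrane ring, 4 of 5 fell and none was called higher (median -0.78). Aaas, which encodes ALADIN, a protein held at the pore by Ndc1, had the largest fall of all 27 genes. It had 10.3, 10.0 and 8.58 CPM in cKO cells, against 27.4, 30.1 and 23.5 CPM in WT cells. Every cKO library was well below every WT library. Its log2 fold change was -1.48 ± 0.14 (SE, edgeR adjusted p = 0.000173), and the level fell by 64.2% in cKO cells. Nup210, a membrane-spanning glycoprotein with a large part in the lumen of the envelope, had 71.2, 60.9 and 70.1 CPM in cKO cells, against 115.8, 132.6 and 112.3 CPM in WT cells. The groups were far apart and the log2 fold change was -0.84 ± 0.11 (SE, edgeR adjusted p = 0.000832). Ndc1, the membrane protein that anchors ALADIN, had 16.2, 20.9 and 18.2 CPM in cKO cells, against 28.0, 37.5 and 30.01 CPM in WT cells. No cKO library overlapped a WT library, and the log2 fold change was -0.78 ± 0.16 (SE, edgeR adjusted p = 0.00629). Pom121, a membrane protein that acts early in pore assembly, averaged 53.1 ± 1.5 CPM in cKO cells and 68.9 ± 8.77 CPM in WT cells (SD, n = 3 each; edgeR adjusted p = 0.0274). Its call was lost without WT replicate 2, WT replicate 3, cKO replicate 1 or cKO replicate 3 (edgeR adjusted p 0.0562 to 0.0882), and with GC content smoothed out its log2 fold change was -0.01. Nup210l, a relative of Nup210, was barely detected, with 60 counts over the 6 libraries, and was not called at -0.51 ± 0.70 (SE).

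The nuclear basket held both genes that rose. Tpr, the long coiled-coil protein that forms the basket, had 38.0, 6.44 and 39.0 CPM in cKO cells, against 5.06, 3.98 and 3.49 CPM in WT cells. All cKO libraries were above all WT libraries, but cKO replicates 1 and 3, the 2 with most structural RNA, were far above cKO replicate 2. The log2 fold change was 2.70 ± 0.74 (SE, edgeR adjusted p = 0.0363). It was 0.59 with cKO replicates 1 and 3 left out (edgeR adjusted p = 0.182), and the call was also lost without any single library other than cKO replicate 2, at log2 fold changes of 2.36 to 2.85 (edgeR adjusted p 0.0827 to 0.15). It was not called either without the low count filter, in limma-voom or with the replicate block (adjusted p 0.0926, 0.106 and 0.109). Nup153, which binds the lamina and the membrane, had 37.6, 35.8 and 34.5 CPM in cKO cells, against 27.5, 28.4 and 19.3 CPM in WT cells. The cKO libraries were close together and above every WT library, with a log2 fold change of 0.52 ± 0.16 (SE, edgeR adjusted p = 0.0315). Without WT replicate 2, WT replicate 3, cKO replicate 1 or cKO replicate 3 the call was lost (edgeR adjusted p 0.0507 to 0.0907), as it was without the low count filter, at 0.41 (0.11), and with GC content and transcript length smoothed out, at 0.22 (0.164). Nup50, a mobile basket protein that helps release import cargo, fell. It had 54.7, 54.2 and 47.6 CPM in cKO cells, against 63.7, 79.0 and 79.0 CPM in WT cells (log2 fold change -0.50 ± 0.12, edgeR adjusted p = 0.0111; -0.45 and 0.0512 without WT replicate 2).

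No gene of the channel or of the cytoplasmic side was called at day 9. Nup54, a channel protein, was at 0.14 ± 0.16. Nup98, a mobile repeat protein, was at 0.14 ± 0.18, and Rae1, the mRNA export factor that binds it, was at 0.01 ± 0.10. Nup88 and Nup214, which form part of the cytoplasmic filaments, were at 0.12 ± 0.11 and -0.10 ± 0.13 (log2 fold changes with SE). For these 5 genes the cKO and WT libraries overlapped. Rae1 was called higher with GC content smoothed out, at 0.34 (edgeR adjusted p = 0.0199), and with GC content and length smoothed out, at 0.54 (0.0023), and Nup88 in the second of these fits, at 0.33 (0.0452).

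Only 5 of the 15 calls at day 9 held in all 16 alternative analyses: Aaas, Nup133, Nup210, Nup37 and Nup43, all of them lower. With cKO replicates 1 and 3 left out, 6 genes were called lower (these 5 and Nup85) and 0 higher, with 14 pore genes at an unadjusted p under 0.05; cKO replicate 2 alone was then assumed to vary like the WT libraries. In that fit 12.3% of all 15677 genes were called lower, 9.07% were called higher and 36.5% had an unadjusted p under 0.05. The lower genes were then 4 in the Y complex, 2 in the membrane ring and 0 in the inner ring and basket. Smoothing out GC content in each library gave 12 lower and 3 higher among the pore genes. That fit held the 12465 coding genes with a GC value, of which it called 2346 lower and 3321 higher, against 3092 lower and 2668 higher among the same genes without the smoothing. The tables carry no strand, so reads of Tpr, Ahctf1, Nup133, Nup188, Nup214, Nup88, Pom121 and Seh1l cannot be told apart from those of genes on the opposite strand whose exons overlap theirs, and exons of Nup35, Ahctf1, Nup188 and Nup214 also overlap those of a gene on their own strand (Dusp19, Kif28, Gm28038 and Mir7674, in that order).

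**Figure D2:**
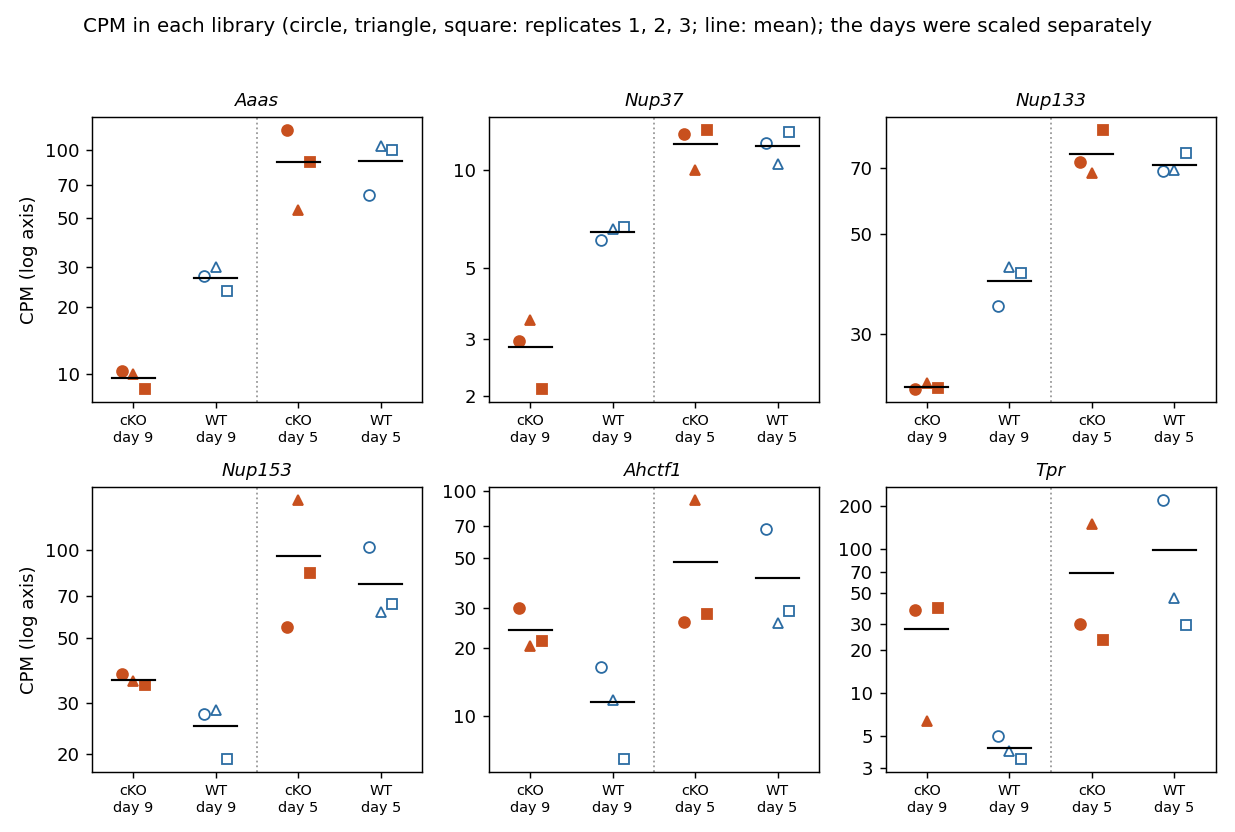
CPM (log axis, its own range in each panel) of 6 pore genes in each of the 12 libraries, with cKO left of WT within each day; the 2 days were scaled separately, so heights are read within a day only. Aaas, Nup37 and Nup133 are lower in all 3 cKO libraries at day 9, and Tpr and Ahctf1 are highest in cKO replicate 2 and WT replicate 1 at day 5.

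Promoter sequence was available for 22 of the 27 genes (25 windows, RefSeq, build GRCm38.p6), and the 250 bases before the annotated start were searched on both strands for short motifs. Windows of 5 genes called at day 9 are shown, picked because they hold a match to one of 3 motifs: the cell cycle homology region CHR (TTTGAA, with TTCGAA as a variant), an E2F core (TTCCCGC, with the variants TTGGCGC plus TTCGCGC) and an ETS core (CCGGAAG). E2F proteins and the complexes that bind CHR elements are known regulators of cell cycle genes, and ETS proteins bind many promoters of broadly expressed genes. Each sequence runs 5′ to 3′ on the strand of its gene and ends at the base before the start, and capitals mark the motif matches, which read as the reverse complement where the motif is on the other strand.
Aaas (chr15:102350760-102351009, minus strand): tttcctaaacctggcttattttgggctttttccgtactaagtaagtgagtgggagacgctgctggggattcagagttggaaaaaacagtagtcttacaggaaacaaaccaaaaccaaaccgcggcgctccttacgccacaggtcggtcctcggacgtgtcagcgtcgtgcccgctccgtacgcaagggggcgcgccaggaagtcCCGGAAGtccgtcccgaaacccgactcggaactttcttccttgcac
Nup37 (chr10:88146742-88146991, plus strand): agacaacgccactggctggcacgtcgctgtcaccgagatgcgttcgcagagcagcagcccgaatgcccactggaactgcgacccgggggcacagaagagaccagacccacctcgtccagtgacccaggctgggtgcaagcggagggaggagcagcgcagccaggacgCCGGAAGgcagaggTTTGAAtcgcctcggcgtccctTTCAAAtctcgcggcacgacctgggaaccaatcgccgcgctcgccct
Nup210 (chr6:91116827-91117076, minus strand): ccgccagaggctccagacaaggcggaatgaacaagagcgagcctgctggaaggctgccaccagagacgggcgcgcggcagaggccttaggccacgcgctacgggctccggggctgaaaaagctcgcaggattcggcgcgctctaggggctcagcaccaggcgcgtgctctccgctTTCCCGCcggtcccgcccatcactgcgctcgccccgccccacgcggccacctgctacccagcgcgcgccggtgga
Nup107 (chr10:117792706-117792955, minus strand): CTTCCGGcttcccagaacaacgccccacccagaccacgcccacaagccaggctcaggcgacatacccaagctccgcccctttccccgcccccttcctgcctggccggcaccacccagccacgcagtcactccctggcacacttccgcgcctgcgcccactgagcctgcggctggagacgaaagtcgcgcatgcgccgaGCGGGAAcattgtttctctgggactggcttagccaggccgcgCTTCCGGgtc
Tpr (chr1:150392588-150392837, plus strand): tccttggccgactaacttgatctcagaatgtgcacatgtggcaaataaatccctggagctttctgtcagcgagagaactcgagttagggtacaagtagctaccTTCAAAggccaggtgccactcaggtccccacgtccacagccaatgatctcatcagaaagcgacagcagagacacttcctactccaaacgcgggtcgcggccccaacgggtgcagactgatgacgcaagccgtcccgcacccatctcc

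The Aaas window held 1 ETS core, the Nup37 window 1 ETS core and 2 CHR matches, the Nup210 window 1 E2F core, the Nup107 window 1 E2F core and 2 ETS cores, and the Tpr window 1 CHR match. Over the 25 windows of pore genes, 28% held an ETS core, against 6.91% of all 32851 windows. CHR matches were in 28% of pore gene windows against 17.1% of all, and E2F cores in 8% against 6.69%. CCAAT was in 40% against 33.9%, GGGCGG in 56% against 32.7% and TGCGCA in 12% against 6.43%. The pore gene windows were also richer in G and C, with a median of 64% against 52.4% over all windows. The 25 windows include 2 of Nup37 that overlap and share matches. An ETS core was found in 4 of the 11 fallen genes with a window, in 0 of the 2 that rose and in 2 of the 9 not called. In the same order, CHR was in 4, 1 and 1, GGGCGG in 7, 1 and 5, and CCAAT in 3, 1 and 4. E2F cores were in 2, 0 and 0, and TGCGCA in 1, 0 and 2. A match is a string of letters and not a shown binding site.

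At day 5, no pore gene was called. The spread between libraries of a group (edgeR's biological coefficient of variation) was 0.405 at day 5 and 0.267 at day 9. Even Lmnb1, at a log2 fold change of -2.68, reached only an edgeR adjusted p of 0.0493 at day 5. A missing call at day 5 is therefore not a sign that a gene was unchanged. The median log2 fold change was 0.06 over the 27 genes and 0.006 over all genes, and every adjusted p rounded to 1.0 in edgeR's test. At an unadjusted p under 0.05, 0 of the 27 pore genes passed in edgeR, beside 0.599% of all genes. DESeq2 and limma-voom also called 0 pore genes. Over all genes, DESeq2 called 0.0539% higher and 0.00673% lower, and limma-voom called 0.00673% in each direction. Over all 14849 genes tested at day 5, 0.00673% were called (Lmnb1 alone), 0% as higher and 0.00673% as lower. Log2 fold changes ranged from -0.53 ± 0.97 for Tpr to 0.35 ± 0.37 for Nup98 (SE). Nup50 was the single pore gene in which all cKO libraries lay above all WT libraries at day 5, with 133.1, 143.3 and 149.4 CPM in cKO cells, against 131.6, 116.8 and 121.0 CPM in WT cells (log2 fold change 0.20 ± 0.18). That is 1 of 27 pore genes, and over all genes tested 1.5% lay wholly above; 0 pore genes and 1.35% of all genes lay wholly below. Of the genes that fell most firmly at day 9, Aaas stood at day 5 at -0.01 ± 0.36, Nup37 at 0.03 ± 0.24, Nup133 at 0.08 ± 0.20 and Nup210 at -0.02 ± 0.29.

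**Figure D3:**
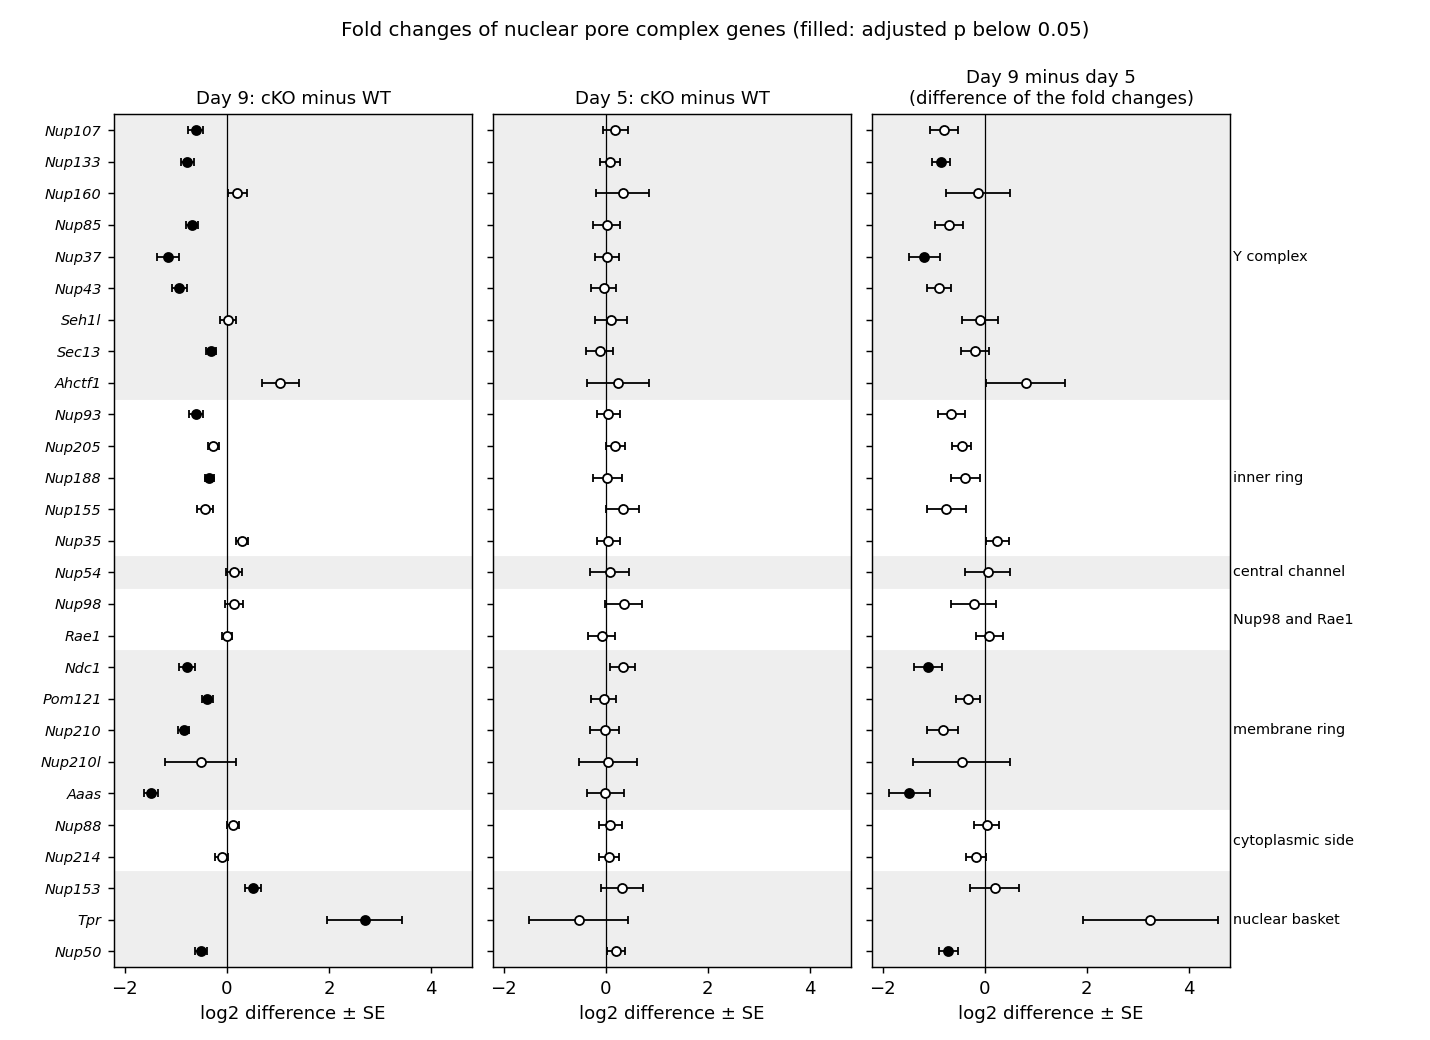
Points give the log2 fold change of cKO over WT at day 9 (left) and day 5 (middle) and the day 9 change minus the day 5 change (right) for each pore gene, with bars of 1 SE, and filled points have an adjusted p under 0.05. At day 9, 15 points are filled, at day 5 none, and in the difference 5.

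Within the day 5 groups, cKO replicate 2 and WT replicate 1 lay apart from the others. Tpr had 30.3, 150.7 and 23.4 CPM in cKO cells, against 220.2, 45.7 and 29.7 CPM in WT cells. Ahctf1 had 26.1, 91.0 and 28.3 CPM in cKO cells, against 67.7, 25.9 and 29.1 CPM in WT cells. In both genes the high libraries were cKO replicate 2 and WT replicate 1. These 2 libraries were both above the other 4 for 11 pore genes (Ahctf1, Nup107, Nup153, Nup155, Nup160, Nup210l, Nup54, Nup88, Nup98, Seh1l and Tpr). They were both below the other 4 for 10 (Aaas, Nup133, Nup188, Nup210, Nup214, Nup85, Nup93, Pom121, Rae1 and Sec13). Over all genes tested the shares were 33.5% and 36.6%.

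The pattern moved with base composition, whose part in the fold changes was not tested. Over the 27 pore genes, a library's log2 CPM minus the day 5 mean of the gene had a Spearman correlation with the GC content of its longest coding transcript of -0.71 in cKO replicate 2 and -0.78 in WT replicate 1. In the other 4 libraries it was 0.05 to 0.77. Over 13133 coding genes the same values were -0.73, -0.74 and 0.11 to 0.79. The points share their libraries, and GC content is related to transcript length, for which the correlations over pore genes were 0.56 and 0.32. With both libraries left out, 0 pore genes were called at day 5, and the median log2 fold change was 0.12. With all libraries kept, the day 5 log2 fold change correlated with GC content at -0.46 over the pore genes and -0.49 over 13133 coding genes. At day 9 these correlations were -0.39 over the pore genes and -0.37 over 12465 coding genes.

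**Figure D4:**
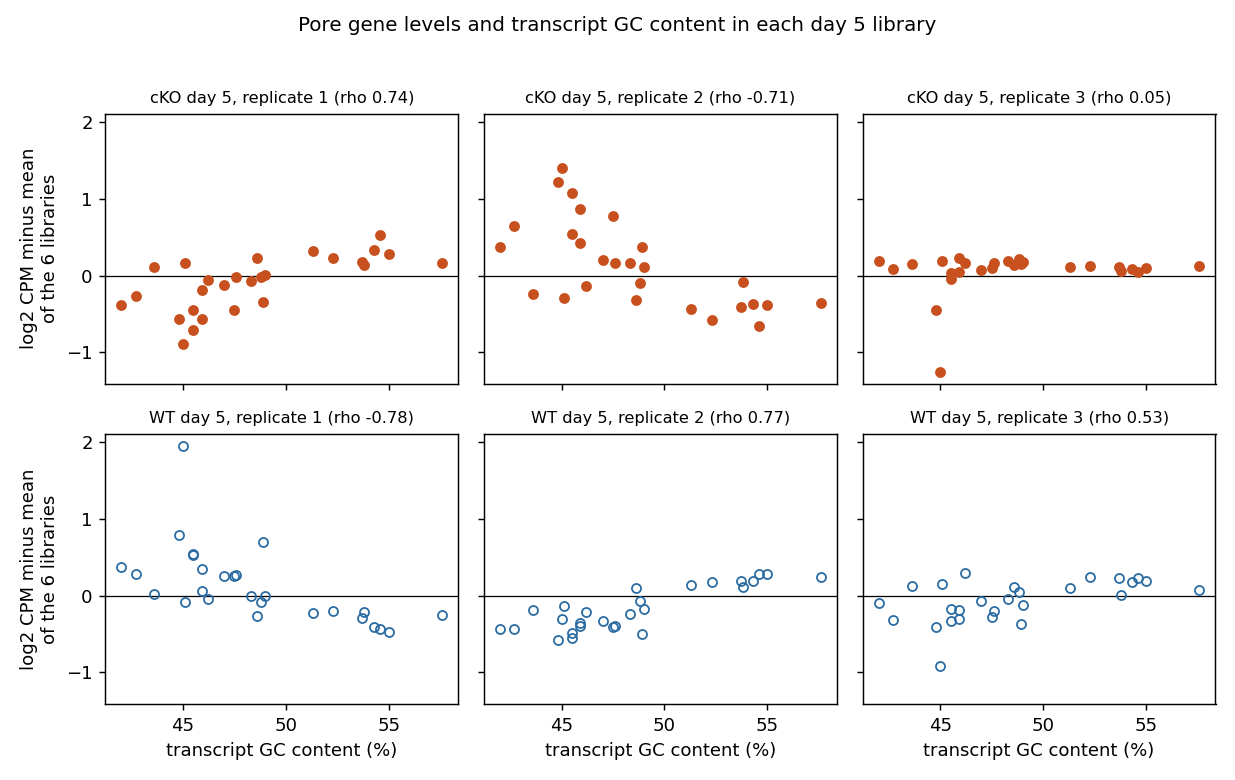
Each panel is a day 5 library (top: cKO, bottom: WT) and each point a pore gene, with transcript GC content (%) on the x axis and log2 CPM minus the mean of the 6 libraries on the y axis. Points fall from left to right in cKO replicate 2 (rho -0.71) and WT replicate 1 (rho -0.78) and do not in the other 4 libraries (rho 0.05 to 0.77).

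The change in cKO cells differed between the days for 5 pore genes, all more negative at day 9. In the test of the difference (day 9 change minus day 5 change, edgeR, 15323 genes), 7.71% of all genes were called, 2.57% as higher and 5.14% as lower. The pore genes called were Aaas at -1.48 ± 0.40 (SE, edgeR adjusted p = 0.0473), Nup37 at -1.18 ± 0.30 (0.0352), Ndc1 at -1.11 ± 0.28 (0.0373), Nup133 at -0.85 ± 0.18 (0.0151) and Nup50 at -0.71 ± 0.19 (0.0434). At day 5 Ndc1 had 60.5, 92.9 and 80.9 CPM in cKO cells, against 71.6, 53.9 and 60.6 CPM in WT cells, so the groups overlapped. At day 5 Aaas had 123.7, 54.3 and 88.7 CPM in cKO cells, against 63.1, 104.6 and 100.3 CPM in WT cells. Nup133 had 72.2, 68.1 and 84.9 CPM in cKO cells at day 5, against 69.0, 69.3 and 75.3 CPM in WT cells, and Nup37 had 12.9, 10.0 and 13.3 CPM in cKO cells, against 12.1, 10.4 and 13.1 CPM in WT cells. The cKO and WT libraries of these 2 genes overlapped at day 5 and were apart at day 9. Tpr had the largest difference, 3.24 ± 1.32, which was not called (edgeR adjusted p = 0.209). The calls were fragile: 0 to 9 genes were called lower when 1 of the 12 libraries was left out, 0 with cKO replicates 1 and 3 of day 9 left out, and 10 with cKO replicate 2 and WT replicate 1 of day 5 left out or with GC content smoothed out. The lower calls over all genes were 5.14% in the reported fit and 3.28% to 7.92% without 1 library. With cKO replicate 2 and WT replicate 1 of day 5 left out they were 9.33% of 15460 genes. With GC content smoothed out they were 11.4% of 13070 coding genes.

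Levels of different genes were set side by side only per transcript length, as TPM rescaled to the same total outside structural RNA. At day 9, Sec13 was the highest of the 27 genes in both groups, at 150.2 ± 27.0 TPM in cKO cells and 185.2 ± 4.63 TPM in WT cells (SD, n = 3 each). In cKO cells Nup88, Rae1 and Nup35 followed, at 61.9 ± 5.90, 60.5 ± 9.97 and 58.1 ± 7.78 TPM, which do not differ from each other beyond their spread. In WT cells Nup210, Nup85, Nup88 and Rae1 followed, at 64.4 ± 3.89, 62.3 ± 5.90, 61.9 ± 7.55 and 59.6 ± 3.42 TPM, likewise within their spread. Aaas was 18th of 27 in cKO cells at 14.7 ± 2.48 TPM and 10th in WT cells at 42.4 ± 5.85 TPM. Nup210l was last in both groups, at 0.193 ± 0.124 TPM in cKO cells and 0.246 ± 0.0575 TPM in WT cells. At day 5, Sec13, Nup85 and Aaas led in both groups, with Sec13 at 187.6 ± 44.3 TPM in cKO cells and 207.0 ± 13.2 TPM in WT cells and Aaas at 74.7 ± 25.0 TPM in cKO cells and 76.3 ± 13.5 TPM in WT cells. The pore genes have long transcripts, with a median longest coding transcript of 4766 bases against 2681 over all coding genes. Among the largest falls, Aaas (1811 bases), Nup37 (1277 bases) and Nup43 (1286 bases) are short for the group, and Nup210 (7037 bases) and Nup133 (5808 bases) are long. Sec13 (1353 bases), Nup35 (1559 bases) and Rae1 (1742 bases) are also short, at day 9 log2 fold changes of -0.31, 0.30 and 0.01. The day 9 log2 fold change had a Spearman correlation with transcript length of 0.34 over the pore genes and 0.35 over 12465 coding genes. Aaas lies on chr15:102338252-102350771 and has 16 exons in the annotation, and Nup37 lies on chr10:88146992-88178390 and has 10 (GENCODE, GRCm38).

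Of the pore genes outside the symbol rule, Ranbp2, the large filament protein that binds Ran on the cytoplasmic face, had 40.2, 7.32 and 39.0 CPM in cKO cells at day 9, against 6.36, 4.63 and 3.46 CPM in WT cells. Like Tpr it was high in cKO replicates 1 and 3, and it was called higher at 2.55 ± 0.72 (SE, edgeR adjusted p = 0.04), but not with those 2 libraries left out. Nupl1 and Nupl2 were not called, at 0.39 ± 0.14 and 0.27 ± 0.17, and Nup62cl had 43 counts over the 6 libraries and did not pass the filter.

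Genes that act with the pore were set beside all genes tested at day 9, of which 21% were called higher and 22.6% lower. The lists below are read beside these shares. Of 6 genes of the Ran cycle, which gives transport its direction, 3 fell and 0 rose: Rangap1 at -1.11 ± 0.10, Ran at -0.69 ± 0.11 and Rcc1 at -1.0 ± 0.18 (log2 fold changes with SE; edgeR adjusted p = 0.000121, 0.00183 and 0.0037), and the same count held with cKO replicates 1 and 3 left out. With GC content smoothed out 3 were called lower and 1 higher, and with GC content and length smoothed out 3 lower and 2 higher (median log2 fold change -0.13, against -0.49 in the reported fit). Of 15 import receptors 2 rose (Kpna4 at 1.41 ± 0.29 and Kpna1 at 0.57 ± 0.15) and 2 fell (Kpna2 at -1.43 ± 0.16 and Ipo9 at -0.30 ± 0.11). Of 8 export receptors 1 rose, Xpo4 at 0.79 ± 0.26. Of 16 mRNA export factors and pore partners 3 rose and 4 fell, the fallen ones being Alyref at -0.67 ± 0.10, Gle1 at -0.70 ± 0.11, Zc3hc1 at -0.66 ± 0.12 and Nxt1 at -0.75 ± 0.14. With cKO replicates 1 and 3 left out, 1 import receptor rose and 1 fell, 0 export receptors were called, and 1 mRNA export factor rose and 3 fell. With GC content smoothed out, 4 import receptors rose and 3 fell, 2 export receptors rose and 0 fell, and 2 mRNA export factors rose and 5 fell. That fit called 26.6% of the genes tested higher and 18.8% lower. With GC content and length smoothed out, 1 import receptor rose and 5 fell, 1 export receptor rose and 1 fell, and 1 mRNA export factor rose and 5 fell. Here 25.6% of the genes tested were called higher and 18.1% lower. Of 14 lamina and envelope genes, 7 fell and 1 rose; beside Lmnb1, Banf1 fell by 1.23 ± 0.13 and Tmpo by 0.91 ± 0.16 on the log2 scale, and Syne1 rose by 2.44 ± 0.36, and with the same 2 libraries left out 3 fell and 1 rose. With GC content smoothed out, 5 lamina and envelope genes fell and 3 rose, and with GC content and length smoothed out 5 fell and 1 rose. None of the genes in these lists other than Lmnb1 was called at day 5.

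Cell cycle and cell type markers moved in the same libraries. At day 9, 21 of 24 S phase genes fell and 0 rose, with Uhrf1 at -3.21 ± 0.17 and Mcm2 at -2.28 ± 0.13, and 20 of 25 G2 and M phase genes fell and 0 rose, with Plk1 at -3.88 ± 0.13 and Cdca3 at -4.12 ± 0.17. The summed level of the G2 and M phase list was 143.4 to 182.9 CPM in cKO libraries and 1068 to 1366 CPM in WT libraries. Its median log2 fold change was -3.07, against -0.34 for the pore genes. Neural progenitor markers fell in 7 of 10 and rose in 1, with sums of 1711 to 1927 CPM in cKO libraries and 3294 to 3693 CPM in WT libraries. Sox2 was not called (0.07 ± 0.13), while Nes was lower at -1.97 ± 0.16. Neuron markers rose in 5 of 6 (sums 519.5 to 581.5 CPM in cKO and 126.0 to 291.3 CPM in WT libraries), astrocyte markers in 4 of 6 (1967 to 2552 CPM and 1383 to 1564 CPM) and oligodendrocyte lineage markers in 5 of 7 with 2 lower (739.4 to 887.8 CPM and 470.7 to 496.2 CPM). Microglia markers summed to 0.402 to 1.27 CPM in cKO and 0.113 to 0.233 CPM in WT libraries with Aif1 at 0, endothelial markers to 2.65 to 3.27 CPM and 1.86 to 2.12 CPM, and fibroblast and mural markers to 1.72 to 3.24 CPM and 1.40 to 1.87 CPM. The part of these changes in the pore gene values was not tested. Progenitor markers at day 5 summed to 5218 to 6280 CPM in cKO libraries and 5003 to 6330 CPM in WT libraries, and none was called. Oligodendrocyte lineage markers at day 5 summed to 204.3 to 282.8 CPM in cKO libraries and 343.3 to 387.1 CPM in WT libraries, which did not overlap; all 6 tested were negative (median log2 fold change -0.68) and 0 were called. At day 5, 0 of the S phase and G2 and M phase genes were called, and the G2 and M phase sums were 3632 to 4498 CPM in cKO libraries and 3442 to 4419 CPM in WT libraries.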

How the data were processed

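Per the file headers and the submitters' processing notes, the authors deposited RSEM expected counts and, separately, TPM values per gene from single-end reads, with Bowtie2 and the build mm10 named. Of annotation, trimming and strand nothing is given in the sources used here. Expected counts were rounded; 42425 of the 43309 day 5 identifiers and 41839 of the 42802 day 9 symbols matched the reference names. Each day has its own tables, so levels were not compared between days.

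Each day was tested alone (cKO against WT, 6 libraries) with edgeR 4.0.16 in R 4.3.3: TMM scaling after filterByExpr by group, the robust quasi-likelihood test, Benjamini-Hochberg adjustment over all genes and a threshold of 0.05. The difference between days was fitted on all 12 libraries on 41592 symbols, each present once per table. Standard errors are the log2 fold change over the square root of F. The test was tried on simulated counts with the same spread for every gene. These lack the day 5 shift with base composition, so they cannot show how the test behaves under it. Alternatives used DESeq2 1.42.0, limma-voom 3.58.1, RLE scaling, other low count filters, removal of structural RNA, a replicate block, fits without single libraries or pairs of libraries, and offsets for GC content and length (GENCODE longest coding transcripts). TPM was rescaled outside structural RNA, a list extended after seeing the data. The pore genes and gene lists were chosen with earlier results of these data known. Per-library values are given for genes called at day 5 or between days and, at day 9, the 3 with the smallest adjusted p in each direction of each layer. Of other lists at most 4 called genes are named; Sox2, Ahctf1 and Nup50 at day 5 were added after their values were seen. Protein sequences were not used here.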

Additional observations from a re-analysis of the deposited data

Results flagged for a closer look

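For 5 pore genes the change in cKO cells differed between day 9 and day 5 in edgeR's test of the difference itself (day 9 log2 fold change minus day 5 log2 fold change, all 12 libraries). Aaas was at -1.48, with every cKO library below every WT library at day 9. Nup37 was at -1.18, Ndc1 at -1.11, Nup133 at -0.85 and Nup50 at -0.71, each likewise lower in 3 of 3 cKO libraries at day 9. At day 5 their own log2 fold changes were between -0.01 and 0.33, and none was called. In fits that left out 1 of the 12 libraries, the difference ranged over -1.73 to -1.16 for Aaas, -1.41 to -1.07 for Nup37, -1.26 to -0.96 for Ndc1, -0.94 to -0.78 for Nup133 and -0.81 to -0.67 for Nup50. The adjusted p in these fits reached 0.15, 0.109, 0.114, 0.0739 and 0.128, and the direction held in all 12. The call was kept in 1 of the 12 fits for Aaas, 2 for Nup37, 3 for Nup50, 4 for Ndc1 and 7 for Nup133. The calls of all 5 genes were also lost without the low count filter and with the replicate block. In limma-voom only the Nup133 call was kept. The Aaas call alone was also lost with RLE scaling and with structural RNA removed.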

How the results depend on the processing

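At day 5, 0 pore genes were called under every alternative, where at most 0.0814% of all genes were called higher and 0.0475% lower. The median log2 fold change of the pore genes was 0.001 to 0.24 when 1 library was left out. At day 9, the count of higher pore genes was 4 in DESeq2, 0 without the low count filter and 5 with GC content and length smoothed out. Over all genes tested, 23.9%, 9.71% and 25.6% were called higher in these fits. Without 1 library the count was 0 to 2, beside 11.6% to 24.4% of all genes. The count of lower genes was 8 to 13 without 1 library and 6 without cKO replicates 1 and 3. In the fits without 1 library, 15.2% to 25.6% of all genes tested were called lower, against 22.6% in the reported fit. The median of the pore genes was -0.46 without the filter, a setting that moved the median of all genes to 0.10. With GC content smoothed out it was -0.14, and the median of the 12465 coding genes tested in that fit was 0.08. Between days, the count of higher pore genes was 1 in DESeq2, beside 3.55% of all genes. It was 0 to 1 without 1 library, beside 1.45% to 7.55% of all genes. The count of lower genes was 0 without the filter, 1 in limma-voom, 0 to 9 without 1 library, 0 without cKO replicates 1 and 3 of day 9, and 10 in each of 3 fits chosen after seeing the data (cKO replicate 2 and WT replicate 1 of day 5 left out, GC content smoothed out, GC content and length smoothed out). The median difference between days over the pore genes was -0.52 to -0.26 without 1 library and -0.49 with GC content and length smoothed out. With cKO replicates 1 and 3 of day 9 left out it was -0.33. Single genes that reversed at day 9 were Sec13, at 0.25 with GC content and length smoothed out, and Seh1l, at -0.50 with GC content smoothed out. The cause of these changes was not tested.

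With the replicate block, 2 pore genes were higher and 12 lower at day 9, beside 18.8% and 18.9% of all genes. At day 5, 0 pore genes and 0% of all genes were called. Between days 0 pore genes were called, beside 0.529% of all genes called higher and 1.57% called lower. The deviations of same-numbered libraries had correlations of -0.721, -0.498 and 0.534 at day 5 and -0.00138, -0.2 and -0.0628 at day 9. The differently numbered cKO replicate 2 and WT replicate 1 of day 5, which moved with base composition, had 0.757. With so few libraries per group and this shift at day 5, the correlations cannot decide whether the numbers pair the libraries. Depth limits Nup210l most, with 60 counts in all at day 9.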

Other observations

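Thoc2, an mRNA export factor named here after its values were seen, had the library pattern of Tpr and Ranbp2 at day 9, with 23.5, 4.75 and 25.9 CPM in cKO cells, against 3.503, 2.55 and 2.21 CPM in WT cells. Its log2 fold change was 2.67 ± 0.68 (SE, edgeR adjusted p = 0.0262). The importin gene Ipo7 had 40.5, 41.1 and 34.3 CPM in cKO cells, against 24.4, 13.3 and 5.38 CPM in WT cells, with a spread among WT libraries and no call (edgeR adjusted p = 0.0753).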
